A study of Mus musculus with 48 samples.

Results

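The glutathione S-transferases described here were *Gsta3*, *Gsta4*, *Gstm1*, *Gstm2*, *Gstm3*, *Gstp1*, *Gstt1*, *Gstt2*, *Gstk1* and *Mgst1*, a list of 10 genes given by symbol without use of their measured values. Every probe whose transcript accession mapped to one of these symbols was taken, which gave 13 probes for 9 of the 10 genes, among 41174 probes and 18434 named genes on the arrays. No probe mapped to *Gstk1*, which was not analysed here. *Gsta3*, *Gstm1*, *Gstp1* and *Mgst1* each had 2 probes and the other genes 1, and where there were 2, the probe with the higher mean signal stands for the gene. All 13 probes were well above background in both channels on all 48 arrays, and none was saturated.

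Glutathione S-transferases join reduced glutathione to electrophilic compounds, which makes drugs, environmental toxins and products of lipid peroxidation more soluble and prepares them for export. The soluble enzymes fall into classes named alpha, mu, pi and theta, the kappa enzyme lies in mitochondria and peroxisomes, and *Mgst1* encodes a membrane-bound enzyme of a separate family. The liver is known for high amounts of several of them, some alpha enzymes also reduce organic hydroperoxides without selenium, and many of the genes respond to Nrf2, a transcription factor that binds antioxidant response elements.

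RNA was measured in the liver and whole colon of C57/BL6 offspring aged 12 weeks, described in the study's methods as male, on Agilent 2-colour arrays. All mice and their dams received a high-fat diet, as diet H with 0.44 mg/kg selenium (Se) and 2.4 mg/kg folate or as diet L with 0.08 mg/kg Se and 0.4 mg/kg folate. Both diets also held added ethoxyquin against rancidity, and its part in the levels below was not tested. HH offspring had diet H both through the dam, in gestation and lactation, and after weaning, and LL offspring had diet L throughout. HL offspring came from dams on diet H and were weaned to diet L, and LH offspring came from dams on diet L and were weaned to diet H. Diets H and L differ in Se and folate together, so effects of one cannot be told apart from those of the other. Liver values came from 5 HH, 6 HL, 6 LH and 6 LL mice, 2 arrays of the same HH animal being averaged, and colon values from 6 mice of each group. Litters are not given in the labels, and the labels do not tie a liver to the colon of the same animal. Each value below is the log2 ratio of the mouse (Cy3) over a common reference RNA (Cy5) that was present on every array, so that a ratio of 0 means the level of the reference. The reference is a whole pregnant mouse with its foetus in the deposited design and a pool of intestinal and liver RNA in the study's methods. It bears on the ratio of a gene but is shared by all arrays, and no level of one gene is set against that of another.

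Between 55.1% and 66% of probe spots were well above background on the liver arrays and between 66.8% and 73.7% on the colon arrays. The 12 slides each carried 1 array of every diet group, all from 1 tissue. The 7 measured hepatocyte markers were called higher in liver, and the 9 markers of colon epithelium and 7 of smooth muscle were called higher in colon. *Xist* and *Eif2s3y*, expressed from the inactive X and from the Y chromosome, did not have the male pattern in every mouse. The female pattern was present in 1 liver (HL replicate 2) and in 3 colons, of which 2 were LL (replicates 1 and 3) and 1 was HL (replicate 5). Signals of both genes were present in 1 liver (LL replicate 6) and in 3 other colons, HH replicates 1 and 5 and LL replicate 5. No member was called in a diet comparison below, either with these mice or without them.

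The 250 bases before the first transcription start of 5 of the genes are shown, since these genes span the range of the differences between liver and colon described below. They are *Gsta3*, *Mgst1* and *Gstp1*, and the neighbouring mu genes *Gstm1* and *Gstm2*. By the probes that stand for the genes, the difference of *Gsta3* was the largest of the 9. *Gstm1* differed between the tissues and *Gstm2* was not called. Sequences are from RefSeq, build GRCm38.p6, written 5′ to 3′ on the strand of the gene, for *Gsta3* at chr1:21240335-21240584 (plus strand), *Mgst1* at chr6:138140277-138140526 (plus), *Gstp1* at chr19:4037913-4038162 (minus), *Gstm1* at chr3:108017974-108018223 (minus) and *Gstm2* at chr3:107986421-107986670 (minus). Capitals mark matches on either strand to the core of the antioxidant response element (TGACNNNGC), the GTTAAT element of HNF1 sites, the TATA box (TATAAA), the CCAAT box (CCAAT) and the GC box (GGGCGG).
Gsta3: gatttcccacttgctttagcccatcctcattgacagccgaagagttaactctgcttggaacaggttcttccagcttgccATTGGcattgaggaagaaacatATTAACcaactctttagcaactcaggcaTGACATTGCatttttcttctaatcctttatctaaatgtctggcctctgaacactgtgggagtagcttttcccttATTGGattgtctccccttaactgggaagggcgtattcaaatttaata
Mgst1: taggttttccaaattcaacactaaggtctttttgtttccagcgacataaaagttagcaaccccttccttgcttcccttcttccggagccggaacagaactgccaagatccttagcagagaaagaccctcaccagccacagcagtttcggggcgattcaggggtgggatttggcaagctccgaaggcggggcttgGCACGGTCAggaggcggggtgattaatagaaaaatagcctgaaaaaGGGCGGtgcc
Gstp1: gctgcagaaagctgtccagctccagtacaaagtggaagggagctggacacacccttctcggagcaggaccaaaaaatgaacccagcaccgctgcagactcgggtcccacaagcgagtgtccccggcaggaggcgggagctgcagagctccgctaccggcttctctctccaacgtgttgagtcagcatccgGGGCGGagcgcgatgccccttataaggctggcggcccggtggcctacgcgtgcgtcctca
Gstm1: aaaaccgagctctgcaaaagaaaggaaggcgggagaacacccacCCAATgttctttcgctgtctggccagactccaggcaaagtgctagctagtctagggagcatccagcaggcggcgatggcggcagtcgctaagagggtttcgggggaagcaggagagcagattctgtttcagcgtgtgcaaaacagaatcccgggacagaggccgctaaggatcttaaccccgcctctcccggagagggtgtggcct
Gstm2: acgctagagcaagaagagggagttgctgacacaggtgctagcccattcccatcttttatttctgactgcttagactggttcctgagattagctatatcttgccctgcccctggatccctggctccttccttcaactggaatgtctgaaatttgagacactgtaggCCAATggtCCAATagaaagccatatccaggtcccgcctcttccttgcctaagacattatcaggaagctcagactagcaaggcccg

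The antioxidant response core was found before *Gsta3*, 121 to 113 bases from the start, and before *Mgst1*, 56 to 48 bases from the start, and in 10.2% of all 32851 promoter windows of this length. GTTAAT was found before *Gsta3* and in 6.43% of all windows. A CCAAT box was found before *Gsta3*, *Gstm1* and *Gstm2* (33.8% of all windows), and a GC box before *Gstp1* and *Mgst1* (32.7%). The TATA box letters, present in 12.4% of all windows, were in none of the 5. The promoter table held no entry for *Gsta4* and *Gstt2*. These matches describe letters in the windows and were not tested for binding.

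The first comparison asked how the level of each gene differed between liver and colon. *Gsta3*, *Gstm1*, *Gstm3*, *Gstp1*, *Gstt1*, *Gstt2* and *Mgst1* were higher in liver, by 2.35-fold for *Gstt2* to 117-fold for *Gsta3*, whereas *Gsta4* was 1.27-fold higher and *Gstm2* was not called. With a call at a fold change over 1.5 and an adjusted p under 0.05 (limma, Benjamini-Hochberg over 41171 probes), 7 of the 9 members were called higher in liver and 0 lower. Of all probes 14.6% were called higher in liver and 15.7% lower. Every liver mouse was above every colon mouse for 6 of the 9 members, and *Gsta4*, *Gstm2* and *Gstp1* overlapped, the last through 1 liver. The share of all probes that separated the tissues in this way was not computed. Liver and colon arrays were on different slides, so tissue and slide cannot be told apart in a fixed term. With slide as a random block the same count of 7 members was called.

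**Figure D1:**
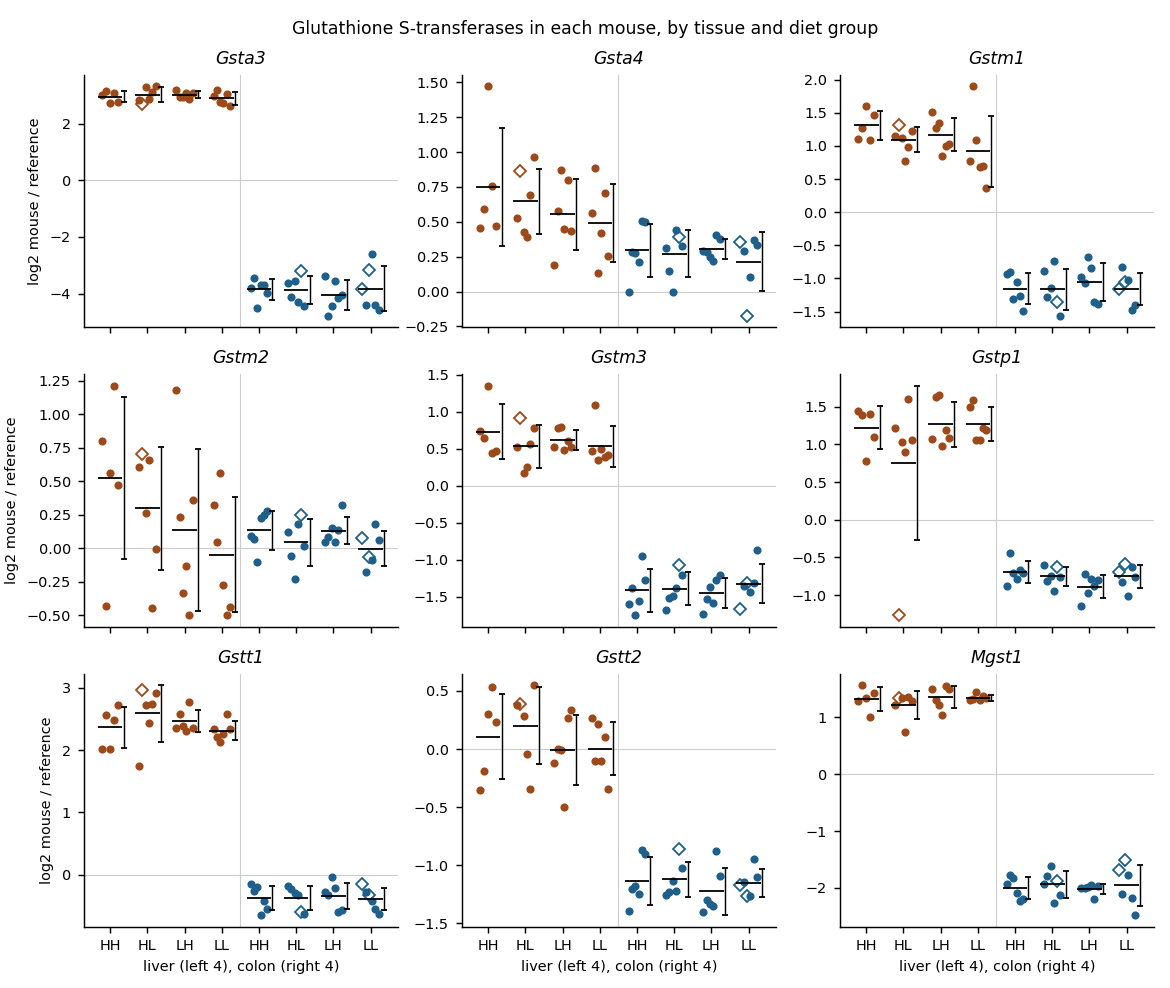
Log2 ratio of mouse over reference for the 9 measured genes in each mouse, liver on the left and colon on the right of each panel; points are mice, diamonds the 4 mice with the female pattern of *Xist* and *Eif2s3y*, lines group means and bars 1 SD. The y axes differ between panels, the 4 diet groups of a tissue overlap in every panel, and 1 HL liver lies apart for *Gstp1*.

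Of the alpha enzymes, *Gsta3*, which in mice conjugates the epoxide of aflatoxin B1, had a median log2 ratio of 2.98 in the 23 livers (2.62 to 3.33) and of -3.89 in the 24 colons (-4.78 to -2.61). The gap between the lowest liver and the highest colon was wider than the range within either tissue. The mean difference was 6.87 ± 0.12 on the log2 scale (SE), with a 95% confidence interval of 98.7 to 138-fold and an adjusted p of 2.12e-40 (limma). The other *Gsta3* probe gave a difference of 4.60 ± 0.09, so both probes were higher in liver but by different amounts. *Gsta4*, which acts on 4-hydroxynonenal, a product of lipid peroxidation, ranged from 0.13 to 1.47 in liver and from -0.17 to 0.51 in colon. These ranges overlapped, and the mean difference of 0.34 ± 0.07 (adjusted p = 2.48e-05) was below the fold threshold. With arrays centred on their median in place of loess, *Gsta4* was lower in liver (-0.29, adjusted p = 0.00249), so the direction of this small difference depended on the scaling.

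The mu enzymes *Gstm1*, *Gstm2* and *Gstm3* lie in one gene cluster on chromosome 3 and differed between tissues to unlike extents. *Gstm1*, a major mu enzyme of liver, had a median of 1.11 in liver (0.37 to 1.91) and of -1.11 in colon (-1.56 to -0.67), a difference of 2.26 ± 0.09 (adjusted p = 3.58e-27), and its other probe gave 2.43 ± 0.07. *Gstm3* had a median of 0.52 in liver (0.17 to 1.35) and of -1.38 in colon (-1.75 to -0.86), a difference of 2.00 ± 0.07 (adjusted p = 1.35e-27). For both genes the lowest liver was above the highest colon. *Gstm2* had a median of 0.26 in liver (-0.50 to 1.21) and of 0.08 in colon (-0.23 to 0.32), and its difference of 0.15 ± 0.11 was not called (adjusted p = 0.214, 95% interval 0.956 to 1.29-fold). Under median centring it was lower in liver by -0.33 (adjusted p = 0.00265), again below the fold threshold. The colon values of *Gstm2* lay inside the range of its liver values.

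*Gstp1*, the pi enzyme, ranged from -1.27 to 1.65 in liver with a median of 1.19, and from -1.15 to -0.45 in colon with a median of -0.76. Without the lowest liver, HL replicate 2, the lowest value was 0.78, above every colon. The difference was 1.90 ± 0.12 (3.73-fold, adjusted p = 2.25e-19), and the other probe gave 2.37 ± 0.10. *Gstp2*, a near-identical neighbour of *Gstp1*, had no mapped probe, and how far the *Gstp1* probes also record its transcripts was not tested.

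Of the theta enzymes, which act on small halogenated compounds among others, *Gstt1* had a median of 2.4 in liver (1.75 to 2.97) and of -0.32 in colon (-0.65 to -0.04). Its difference was 2.81 ± 0.07, or 7-fold (adjusted p = 6.86e-34), with no overlap between tissues. *Gstt2* had a median of 0.10 in liver (-0.50 to 0.55) and of -1.19 in colon (-1.41 to -0.86), a difference of 1.23 ± 0.07 (adjusted p = 2.21e-20). Here too the tissues did not overlap, although the livers were near the reference. *Mgst1*, the enzyme of microsomal and outer mitochondrial membranes, had a median of 1.33 in liver (0.73 to 1.56) and of -1.97 in colon (-2.48 to -1.50). Its difference was 3.28 ± 0.06, or 9.73-fold (adjusted p = 3.54e-39), and 4.75 ± 0.08 by the other probe. The latter was larger than the difference by the other *Gsta3* probe, so the order of *Gsta3* and *Mgst1* depended on the probe.

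The reference channel of the chosen probes differed by -0.21 to 0.63 between liver and colon arrays (quantile-normalised log2 Cy5, liver minus colon), the extremes being *Gsta3* and *Mgst1*. For the other probes of *Gsta3*, *Gstm1*, *Gstp1* and *Mgst1* it differed by 0.87, 0.08, 0.21 and -0.35. In the Cy3 channel alone the differences of the chosen probes were 6.5 for *Gsta3* and 3.52 for *Mgst1*, against 0.14 for *Gstm2*. The order from *Gsta3* through *Mgst1* and *Gstt1* down to *Gsta4* and *Gstm2* was also present in the signal of the mouse RNA without the reference, except that *Gstp1* (1.09) came below *Gstt2* (1.36).

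**Figure D2:**
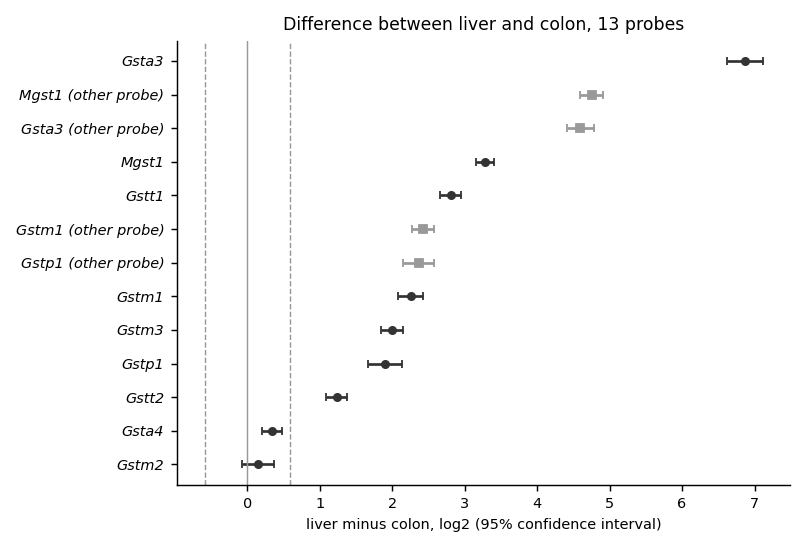
Difference of liver minus colon on the log2 scale with its 95% confidence interval for the 13 probes; circles are the probes that stand for a gene, squares the other probes, and dashed lines a 1.5-fold change. All probes except those of *Gsta4* and *Gstm2* lie to the right of the 1.5-fold line.

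The next comparisons asked how the diet of the dam and of the offspring changed the genes in the liver. None of the 9 members was called in any of the 9 liver comparisons, which were the 6 pairs of groups, the effect of dam diet (mean of LH and LL minus mean of HH and HL), the effect of offspring diet (mean of HL and LL minus mean of HH and LH) and their interaction. No probe at all was called in these comparisons (0%), the lowest adjusted p being 0.125 for HH vs. LH (limma). The study itself reported liver probes past the same thresholds of fold and adjusted p, most of them for HH vs. LH. What made the counts differ was not tested. In the fits made here no member had an unadjusted p under 0.05. With slide as a block 5 member and comparison pairs had one, and still none was called. The share of all probes was not computed with slide as a block, and the shares that follow are from the fits without it. At that unadjusted level, the share of all probes was 12% for HH vs. LH, 4.38% for HH vs. HL, 3.45% for HH vs. LL, 3.08% for HL vs. LL, 6.38% for LH vs. LL and 1.74% for HL vs. LH. It was 4.14% for dam diet, 1.37% for offspring diet and 11.4% for the interaction. A missed threshold does not show equal levels, and the intervals bound what could have been seen. For HH vs. LH the 95% interval lay within 1.5-fold either way for 7 of the 9 members, and for HH vs. HL for 6. The 4 groups share one estimate of the spread. The *Gstp1* interval for HH vs. LH (-0.62 to 0.71) therefore includes the spread from HL replicate 2, a liver of neither group. Without that liver the pooled SD of *Gstp1* was 0.27 in place of 0.57. In HH vs. LH the differences (LH minus HH) ran from -0.39 for *Gstm2* to 0.10 for *Gstt1*, with a median of -0.11 against -0.01 over all probes. The value of *Gstm2* was -0.62 without HH replicate 2, -0.60 without LH replicate 1 and -0.21 without HH replicate 4.

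**Figure D3:**
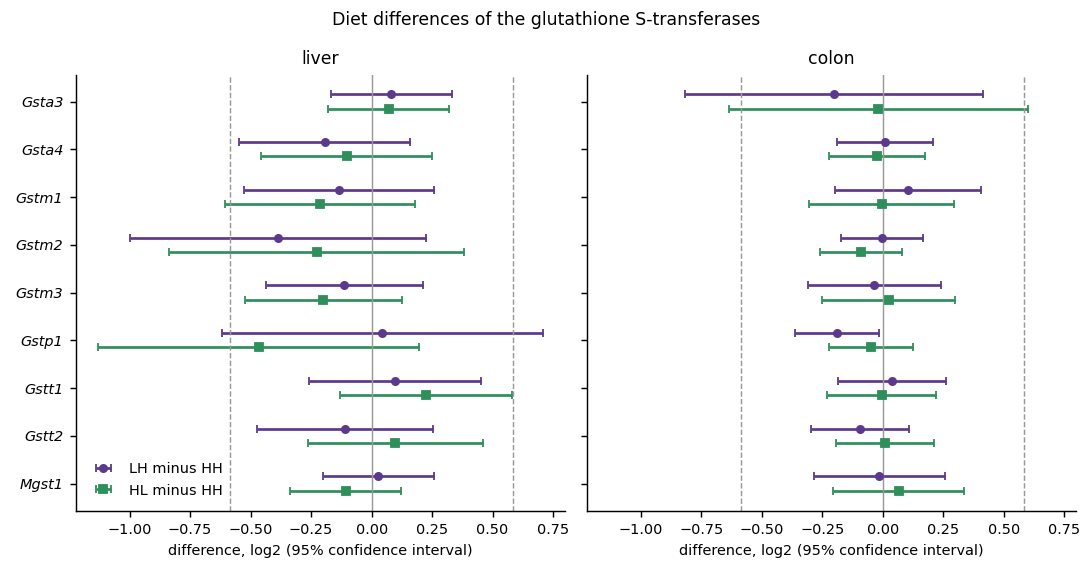
Differences of LH minus HH (circles) and HL minus HH (squares) on the log2 scale with 95% confidence intervals for the 9 genes in liver and colon; dashed lines mark a 1.5-fold change. Liver intervals are widest for *Gstm2* and *Gstp1*, colon intervals for *Gsta3*, and in colon the LH minus HH interval of *Gstp1* lies below 0. Both liver intervals of *Gstp1* include the spread from HL replicate 2.

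*Gstm2* had the lowest p for dam diet among the members in liver. The HH livers had values of 0.80, -0.43, 0.56, 1.21 and 0.47. The HL livers ranged from -0.45 to 0.70 with a median of 0.43, the LH livers from -0.50 to 1.18 with a median of 0.05, and the LL livers from -0.50 to 0.56 with a median of -0.12. Each group held livers below 0 and livers above 0.5, and all 4 groups overlapped, with means of 0.52 ± 0.60 in HH (SD, n = 5), 0.30 ± 0.46 in HL, 0.14 ± 0.61 in LH and -0.05 ± 0.43 in LL (n = 6 each). The dam diet effect was -0.37 ± 0.20 (SE, limma adjusted p = 0.999), and HH vs. LL gave -0.57 (95% interval -1.18 to 0.04, two-sided exact permutation p = 0.0996). Within slides, the LL liver was below the HH liver on 5 of 6 slides, 2 of which carried the same HH animal.

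*Gsta4* came next, with HH livers at 0.45, 0.59, 1.47, 0.76 and 0.47. The HL livers ranged from 0.39 to 0.96 (median 0.61), the LH livers from 0.19 to 0.87 (median 0.51) and the LL livers from 0.13 to 0.88 (median 0.49). The highest HH liver stood above all others and the groups overlapped otherwise, and the dam diet effect was -0.17 ± 0.12 (limma adjusted p = 0.999), or -0.08 ± 0.10 without that mouse, HH replicate 3. *Gstt2* livers were at -0.35, -0.18, 0.30, 0.53 and 0.23 in HH, from -0.34 to 0.55 in HL, from -0.50 to 0.34 in LH and from -0.34 to 0.26 in LL. Here the groups overlapped almost fully, and the dam diet effect was -0.15 ± 0.12 (adjusted p = 0.999).

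*Gstm1* was the member with the lowest p for offspring diet in liver (-0.23 ± 0.13, adjusted p = 1), for HH vs. LL (-0.39 ± 0.19, adjusted p = 1) and for LH vs. LL (-0.25, adjusted p = 0.791). The mean was 1.31 ± 0.22 (SD) in HH, 1.1 ± 0.19 in HL, 1.17 ± 0.25 in LH and 0.92 ± 0.53 in LL livers, the LL mean having the widest spread, from 0.37 in replicate 6 to 1.91 in replicate 2. Without LL replicate 2, HH vs. LL was -0.59 and LH vs. LL -0.45, and without LL replicate 6 LH vs. LL was -0.14. *Gstt1* had the lowest p for HL vs. LL (-0.28, or -0.45 without HL replicate 1) and for the interaction (-0.37), with means of 2.37 ± 0.33 in HH, 2.59 ± 0.45 in HL, 2.46 ± 0.18 in LH and 2.31 ± 0.16 in LL. LL was below LH on all 6 slides for *Gstt1*, by 0.02 to 0.36. The remaining members lay close between diets. *Gsta3* means were 2.94 ± 0.20, 3.02 ± 0.26, 3.03 ± 0.12 and 2.89 ± 0.22 in HH, HL, LH and LL livers. *Gstm3* means were 0.73 ± 0.37, 0.53 ± 0.29, 0.62 ± 0.14 and 0.53 ± 0.28, and *Mgst1* means 1.32 ± 0.21, 1.21 ± 0.24, 1.35 ± 0.20 and 1.34 ± 0.05. No pair of neighbouring group means differed by more than the larger SD of the pair in these 3 genes, so no order of the diets can be read from them.

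*Gstp1* in liver was looked at mouse by mouse after its values were seen, because 1 HL liver stood apart. The HH livers were at 1.44, 1.39, 0.78, 1.40 and 1.1, the LH livers between 0.98 and 1.65 and the LL livers between 1.05 and 1.59. HL replicates 1 and 3 to 6 were at 1.21, 1.03, 0.90, 1.60 and 1.06, and HL replicate 2 at -1.27. That liver was 4.15-fold below the lowest of the other 22 livers, and 3.51-fold below the lowest by the other *Gstp1* probe. HL vs. HH gave -0.47 ± 0.32 (SE, adjusted p = 0.952) with this mouse and -0.06 without it, so the mean difference rested on 1 liver. HL vs. LH moved likewise, from 0.51 to 0.11.

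HL replicate 2 was the liver with the female pattern, *Xist* being at 1.42 against at most -1.42 on the other 23 arrays and *Eif2s3y* at -4.57 against at least -0.21. All 6 reported genes of a list of female-biased liver genes were above all other livers in this mouse, among them *Cyp2b9* (3.46, others at most 1.14) and *A1bg* (3.16, others at most 0.51). The share of all probes for which this liver was the highest or the lowest was not computed. Of 6 male-biased genes, *Cyp4a12a*, *Elovl3* and *Cyp7b1* were below all other livers and *Cyp4a12b*, *Hsd3b5* and *Cyp2d9* within their range. For *Hsd3b5* (-3.31) the range was set by both arrays of 1 HH mouse, replicate 3 (-3.42 and -3.26), all other arrays being at -0.72 or above. That mouse also had the next lowest *Cyp7b1* (-1.58 and -1.73), the next highest *Cyp17a1* (2.47 and 2.29) and the lowest *Gstp1* of the other livers (0.78), with *Xist* and *Eif2s3y* within the male range. In mouse liver *Gstp1* is known as a gene with higher levels in males, and the part of sex in the low value was not tested. LL liver replicate 6, with signals of both *Xist* and *Eif2s3y*, had *Gstp1* at 1.20. In the colon the mice with the female pattern had *Gstp1* at -0.63 (HL replicate 5), -0.69 and -0.58 (LL replicates 1 and 3), inside the range of the other colons.

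**Figure D4:**
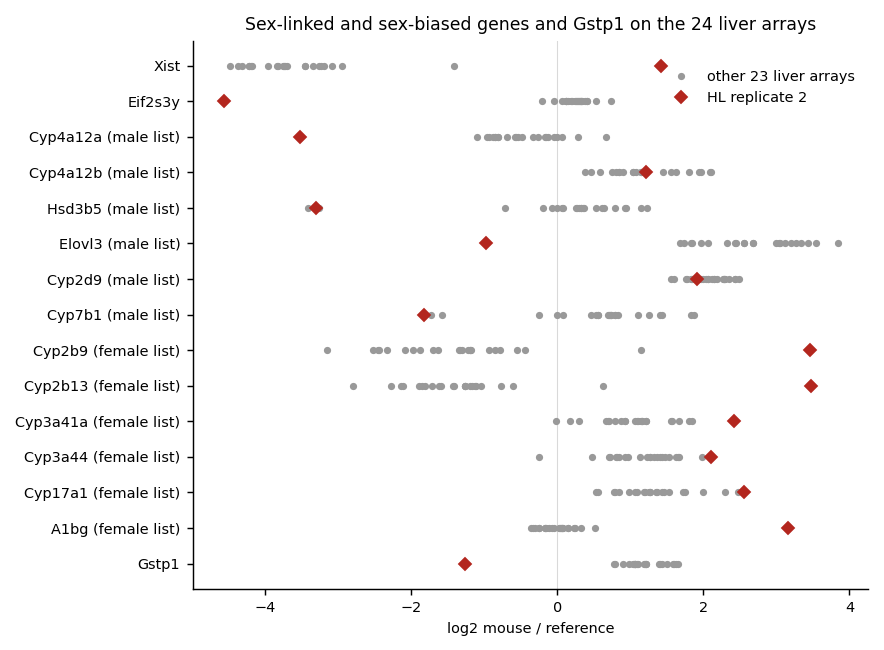
Log2 ratio of mouse over reference on the 24 liver arrays for *Xist*, *Eif2s3y*, listed male-biased and female-biased liver genes and *Gstp1*; red diamonds are HL replicate 2 and grey points the other 23 arrays. The diamond of *Gstp1* lies below all grey points, and those of all 6 female-biased genes above them.

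In the colon no member was called in any of the 9 comparisons, nor any probe (0%). The share of probes with an unadjusted p under 0.05 was 3.24% for HH vs. LH, 1.46% for HH vs. HL, 1.72% for HH vs. LL, 1.02% for HL vs. LL, 2.8% for LH vs. LL and 2.95% for HL vs. LH. It was 2.11% for dam diet, 2.04% for offspring diet and 1.79% for the interaction. Over the 9 comparisons, 1 member reached that level once, *Gstp1* in HH vs. LH. In that comparison the 95% interval lay within 1.5-fold either way for 8 of the 9 members, the exception being *Gsta3*, and for dam diet and for offspring diet for all 9. The intervals were narrower in colon than in liver for *Gstp1* and *Gstm2*, and wider for *Gsta3*, whose SD within groups was 0.56 in colon and 0.21 in liver.

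*Gstp1* colons ranged from -0.88 to -0.45 in HH (median -0.71), from -0.94 to -0.59 in HL (median -0.76), from -1.15 to -0.72 in LH (median -0.84) and from -1.01 to -0.58 in LL (median -0.73). The LH colons were the lowest as a group and overlapped the others. LH minus HH was -0.19 ± 0.08 (SE, limma adjusted p = 1, two-sided exact permutation p = 0.039), a change of 1.14-fold, and LH was below HH on all 6 slides. The other *Gstp1* probe gave -0.21 (exact permutation p = 0.00866), with all LH colons between -1.22 and -1.07. LL minus LH was 0.14 by the chosen probe (unadjusted limma p = 0.115) and 0.23 by the other (exact permutation p = 0.0238). No member's chosen probe had an exact permutation p below 0.0844 for LL minus LH. After adjustment over all probes neither probe passed (adjusted p = 1). *Gstt2* colons ranged from -1.40 to -0.87 in HH, -1.25 to -0.86 in HL, -1.41 to -0.88 in LH and -1.27 to -0.94 in LL, with overlapping groups and a dam diet effect of -0.06 ± 0.07. Within slides, LH was below HH for *Gstt2* on all 6 slides (-0.19 to -0.01) and below HL on all 6 (-0.20 to -0.01), while neither comparison was called with slide as a block. The slide counts of *Gstp1* and *Gstt2* were likewise picked from those of all members and pairs of groups, and are a description. *Gstm2* colons ranged from -0.10 to 0.28 in HH, -0.23 to 0.25 in HL, 0.04 to 0.32 in LH and -0.17 to 0.18 in LL, and its offspring diet effect was -0.11 ± 0.06 (adjusted p = 1).

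For the other members the colon means of HH, HL, LH and LL were as follows. *Gsta3* had -3.85 ± 0.36, -3.87 ± 0.48, -4.05 ± 0.53 and -3.83 ± 0.79 (SD, n = 6), and *Mgst1* had -2.0 ± 0.19, -1.94 ± 0.24, -2.02 ± 0.09 and -1.95 ± 0.36. *Gstm1* had -1.16 ± 0.23, -1.16 ± 0.31, -1.05 ± 0.28 and -1.16 ± 0.24, and *Gstm3* had -1.41 ± 0.29, -1.39 ± 0.22, -1.45 ± 0.20 and -1.32 ± 0.26. In all of these the spread within a group exceeded the differences between groups. The same held for *Gstt1*, with -0.38 ± 0.20, -0.38 ± 0.19, -0.34 ± 0.21 and -0.40 ± 0.18. *Gsta4* had 0.29 ± 0.19, 0.27 ± 0.17, 0.30 ± 0.07 and 0.21 ± 0.21, where LL and LH differed by -0.09, more than the SD of LH and less than that of LL.

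Whether a diet effect differed between liver and colon was tested in one model of all 8 groups. No member was called for the difference of the HH vs. LH effects or of the dam diet effects (0% of probes called for each, with 7.53% and 3.52% of probes at an unadjusted p under 0.05, and none of the 9 members). The dam diet effect in liver minus that in colon was 0.37 for *Gstp1* (95% interval -0.09 to 0.84) and -0.34 for *Gstm2* (-0.77 to 0.09), and the adjusted p was 1 for all members. Without HL liver replicate 2 these values were 0.17 and -0.30.

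The members varied unequally between mice of one group. In liver *Gstp1* and *Gstm2* had pooled within-group SDs of 0.57 and 0.53, larger than those of 98.1% and 97.1% of the 20242 probes that were above background on all arrays, whose median was 0.22. The value of *Gstp1* rested on HL replicate 2, without which its SD was 0.27, above 67.4% of probes, whereas that of *Gstm2* stayed at 0.53. In colon these genes had SDs of 0.15 and 0.14, below the median of 0.20, and *Gsta3* with 0.56 exceeded 99.1% of probes. *Mgst1* in liver (0.19) and *Gsta3* in liver (0.21) were below the median.

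Part of the spread in colon followed the slides. With slide as a term, *Gstm1* (adjusted p = 0.00154), *Gstm3* (0.000678), *Gstt1* (0.000755) and *Gstt2* (6.2e-05) differed between colon slides, as did 40.3% of all probes (limma F test). In liver, over the 22 mice with 1 array, no member did (lowest adjusted p 0.0979 for *Mgst1*) against 4.69% of all probes. *Gstt2* means were -1.31 to -1.22 on slides 7 to 10 and -0.89 and -1.03 on slides 11 and 12, and *Gstm3* was likewise higher on the last 2 slides (-1.15 and -1.14, others -1.67 to -1.44). *Gstm1* (-1.36 and -1.46, others -1.05 to -0.91) and *Gstt1* (-0.54 and -0.60, others -0.41 to -0.20) were lower on them. As every slide held all 4 diets, this spread was shared by the diet groups.

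**Figure D5:**
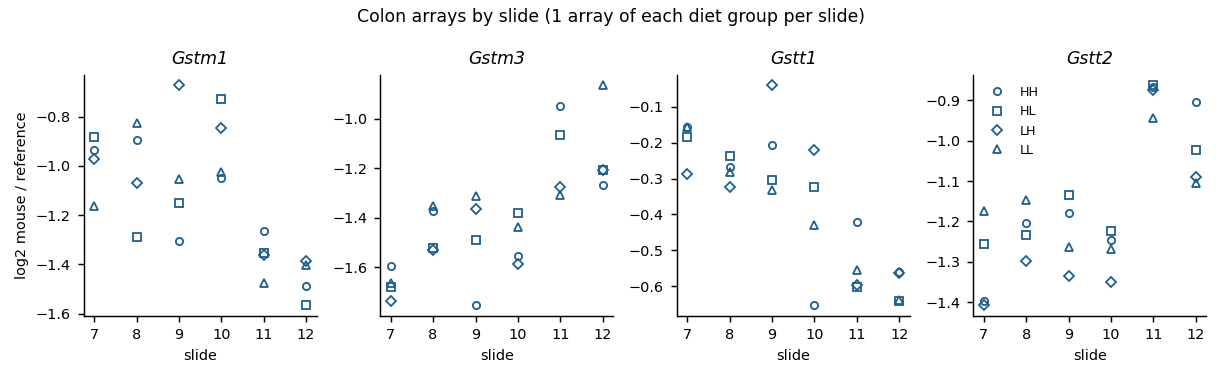
Log2 ratio of mouse over reference in the 24 colons by slide for the 4 genes that differed between colon slides; symbols give the diet group. The means of slides 11 and 12 are low for *Gstm1* and *Gstt1* and high for *Gstm3* and *Gstt2*, with single HH mice on slides 9 (*Gstm1*) and 10 (*Gstt1*) below the HH mouse of slide 11.

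Deviations from the group means were compared between members over mice, for 36 pairs in each tissue. In liver *Gsta4* and *Gstm3* moved together most closely (Pearson r = 0.788, permutation p = 3e-05, adjusted over 36 pairs 0.00108; Spearman rho = 0.678, permutation p = 0.00053, adjusted 0.0191; 23 mice). Without the 2 livers farthest from the median of *Gsta4* r was 0.62, and with slide means removed 0.722. Among all liver pairs 5.56% had an r over 0.5, against 3.3% for a member with any other probe above background. In colon *Gstm1* and *Gstt2* had the largest r in size (-0.723, permutation p = 6e-05, adjusted 0.00216; rho = -0.676, p = 0.00043, adjusted 0.00382; 24 mice), r was -0.74 without the 2 colons farthest from the median of *Gstm1*, and it was -0.132 once slide means were removed. The colon relation of these genes thus did not hold within slides. Other pairs were closer once slide means were removed, r of *Gsta3* and *Mgst1* going from 0.544 (permutation p = 0.00575, adjusted 0.023; rho = 0.515, p = 0.0108, adjusted 0.0355) to 0.736, and that of *Gstm1* and *Gstm3* from -0.439 (permutation p = 0.0327, adjusted 0.0735; rho = -0.443, p = 0.0317, adjusted 0.0671) to 0.734. Before slide means were removed, 16.7% of colon pairs had an r over 0.5 against 17.2% for other probes. The gene most like each member over the 23 livers, among 12350, was *Nat8* for *Gstp1* (r = 0.907), *Pld1* for *Gstm2* (0.879), *Snx16* for *Gsta4* (0.854), *Dyrk1a* for *Gstt1* (0.842), *Hibadh* for *Mgst1* (0.83), *Ifi27l2b* for *Gstm3* (0.807), *Rtkn* for *Gstm1* (0.79), *Mid1ip1* for *Gsta3* (0.777) and *Mocs2* for *Gstt2* (0.673). These are the highest of many values and are a description. They include HL replicate 2, on which the spread of *Gstp1* in liver rested, and were not computed without that mouse.

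The other genes of the pathway were read in the same fits. Of 18 other glutathione transferases and related enzymes, 9 were called higher in liver and 6 lower (all probes 14.6% and 15.7%). The liver-high genes included *Gstz1*, the zeta enzyme of tyrosine breakdown (3.87), *Gstm6* (2.94) and *Gsta1* (2.12), and the colon-high genes *Mgst2* (-4.31), *Mgst3* (-3.26) and *Gsto1* (-1.53), the differences being liver minus colon on the log2 scale. Thus *Mgst2* and *Mgst3* had the opposite direction to *Mgst1*, and *Gstm5* (-0.76) to *Gstm1* and *Gstm3*. Of 17 genes of glutathione synthesis and turnover, 9 were called higher in liver and 3 lower. *Gclc* and *Gclm*, the subunits of the rate-limiting ligase, were higher (1.90 and 1.61), and *Dpep1*, a dipeptidase that cleaves cysteinylglycine, lower (-3.04). Of 7 exporters of conjugates, 1 was called higher in liver, *Abcc2* of the bile canaliculus (4.98), and 4 lower, with *Abcc1* at -2.13. Of 14 Nrf2 targets and regulators, 4 were called higher and 7 lower, so that *Nqo1* (-1.09) and *Cbr3* (-3.01) were higher in colon while most of the 9 members were higher in liver.

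None of these genes was called between diets. For HH vs. LH in liver, 3 of the 14 Nrf2 genes had an unadjusted p under 0.05, all lower in LH, with a median of -0.22 over the list against -0.01 over all probes. They were *Cbr3* (-0.64, adjusted p = 0.253), *Hmox1* (-0.52, 0.289) and *Srxn1* (-0.43, 0.364), enzymes of carbonyl reduction, haem breakdown and sulfiredoxin repair. Of the 7 exporters 2 were higher and 2 lower at that level, among them *Abcc2* (0.28, adjusted p = 0.276), *Abcc1* (-0.19, 0.374) and *Abcg2* (0.50, 0.394). Of the other transferases 1 of 18 reached it, *Gsto2* (0.32, adjusted p = 0.304), and of the synthesis genes 1 of 17, *Anpep* (0.34, 0.276). Of 12 genes listed for the nuclear receptors CAR and PXR, 3 were higher and 1 lower, led by *Ugt1a1* (0.95, adjusted p = 0.203). That list holds the receptors themselves as well as other genes, and *Rxra* (0.51, adjusted p = 0.282) was among the higher ones. These counts stand beside the 12% of all probes at the same level.

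Markers of other cells in the same comparison differed in places. *Marco* of Kupffer cells was at -1.08 (adjusted p = 0.287), *Hba-a1* of red cells at -0.50 (0.23) and *Fgb* of hepatocytes at 0.52 (0.197), all LH minus HH in liver. Of the 5 leukocyte markers *Ptprc* was at -0.61 (adjusted p = 0.246) and *Cd3e* at 0.18 (0.619), with a list median of -0.05 and list means from 0.14 to 0.36 in HH and from 0.04 to 0.31 in LH livers. The mean over the 7 Kupffer markers ranged from 1.36 to 2.77 in HH and from 1.33 to 2.43 in LH livers, over the 3 red cell markers from 0.33 to 0.72 and from 0.14 to 0.43, and over the 7 hepatocyte markers from 1.33 to 1.61 and from 1.59 to 1.91. All of these named markers were above background on all 48 arrays, and the part of cell makeup in the members' values was not tested. In whole tissue, fewer cells of a type and less RNA per cell cannot be told apart.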

How the data were processed

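RNA of 24 liver and 24 colon samples was hybridised on 48 Agilent 2-colour arrays, the mouse in Cy3 and a common reference in Cy5, with no dye swap. The authors deposited the scanner output with foreground and background intensity per spot and channel (Feature Extraction 10.10.1.1 per the file headers), and a table of log2 ratios which, set against the scanner values, was loess normalised without background correction and ran as reference over mouse (r of 0.9997 or more in size). The submitters' processing notes name limma and R 3.0.2. Diet groups were taken from the labels.

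Here, a local background above its spot was set to the median background of that array and channel. Such backgrounds otherwise compressed the ratios on several arrays, most on liver HL replicate 6 (SD 0.551 without and 0.934 with the repair). Then normexp (offset 50) and global loess followed. Control spots had weight 0, flagged outliers were left out, and the 43379 other spots were averaged to 41174 probes, of which 27050 were named through RefSeq accessions. No filter on dim probes was applied. Arrays of one HH liver (replicates 3 and 6) were averaged, their deviations correlating at 0.805 against at most 0.261 in other pairs. limma 3.58.1 in R 4.3.3 fitted the 4 groups of a tissue, or all 8 groups for tissue differences. Probes were called where limma gave an adjusted p below 0.05 (Benjamini-Hochberg, all probes) together with a change of more than 1.5-fold. Single values were also compared by two-sided exact permutation tests, and correlations with 100000 permutations. The p-values measure the spread between mice, and litters were not modelled. The scripts were tested on simulated data.

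For each comparison, members with an unadjusted p under 0.05 were named, up to 4, or else the 1 with the lowest p, and mouse values were given for the 3 with the lowest p for dam diet. From other lists up to 3 genes with the lowest p for HH vs. LH in liver were named, and other genes named were chosen after their values were seen. The members, lists and tests were chosen with earlier results of these data known. Alternatives covered background correction, signal, normalisation, slide blocks, array weights, the groups in a fit, probe choice and filter, the fold threshold, and leaving out single mice or those with female signals. 1 gene of the female-biased list is not reported here.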

Additional observations from a re-analysis of the deposited data

Results flagged for a closer look

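In 72 groups of 5 or 6 mice (9 genes, 8 groups), the highest or lowest mouse was checked for a gap to its nearest neighbour that was large against the range of the group, which chance gives in about 5% of groups. There were 4 such values, 3 in liver and 1 in colon. *Gstp1* in HL liver replicate 2 was at -1.27 against 0.90 to 1.60 in the other 5 HL livers, in the mouse with the female pattern described above. *Gstm3* in LL liver replicate 2 was at 1.08 against 0.34 to 0.50. *Mgst1* in HL liver replicate 4 was at 0.73 against 1.22 to 1.35, and in LH colon replicate 5 at -2.19 against -2.0 to -1.95. All are log2 ratios of mouse over reference.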

How the results depend on the processing

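No member was called between diets in either tissue under any alternative run or without any single mouse, and 7 members were called higher in liver than colon under each, except 8 with no threshold on the fold. None of the named diet differences was called to begin with, so the counts that follow mostly register direction and not size. For example, liver HL vs. LH of *Gstp1* ran from 0.0474 to 0.582 under alternatives. Of 310 diet differences of named members under alternatives 307 kept their direction and side of the threshold, as did 422 of 423 without single mice. The exceptions were liver HL vs. LL of *Gstt1*, at 0.0275 without the background repair, colon HL vs. LL of *Gsta4*, at 0.0289 without the mice with female signals and from -0.112 to 0.0205 without single mice (the highest without LL replicate 3), and liver HH vs. HL of *Gstp1*, at 0.0212 with slide as a block and without the female-signal liver, an alternative chosen after seeing the data. Liver minus colon turned to -0.29 for *Gsta4* and -0.332 for *Gstm2* under median centring. The colon correlation of *Gstm1* and *Gstt2* turned to 0.0153 with processed signals and 0.362 in the Cy3 channel alone, and the cause was not tested. With slide, which carries the replicate number, as a block, no member was called, *Gstp1* in colon HH vs. LH being at -0.189 (adjusted p = 0.553), but 5 liver and 3 colon results had an unadjusted p under 0.05, against 0 and 1. Without LL liver replicate 2 there were 6 in liver. The shares of all probes at that level were not computed for these alternatives. The number of mice limits the precision.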
